A study of Mus musculus with 4 samples.

Results

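Cholesterol and fatty acid synthesis was examined through 30 genes of the enzymes of these pathways and the regulators of their transcription, in plated rib chondrocytes of wild type mice and of mice in which the genes of 2 histone demethylases were targeted by a cartilage Cre. The genes were taken by name from a list of 31 symbols, of which Sc4mol and Msmo1 are the older and the current name of the same gene. All 30 were found among the 17575 genes listed in any library, and all 30 were abundant enough to enter the test among 13773 genes. The list does not hold every enzyme of the pathway.

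Rib cartilage of C57/Bl6 mice aged 10 days was digested with collagenase, and the filtered cells were plated and their RNA sequenced, in the same way for both genotypes. Wild type chondrocytes gave 2 libraries. Another 2 came from chondrocytes of mice called knockout here, with the transgene Col2Cre(Tg) and floxed alleles of Kdm6a and of Kdm6b, each written fl/fl. In this cross a Cre recombinase under a Col2 promoter, active in cartilage, deletes loxP-flanked parts of Kdm6a and Kdm6b, so cells that do not use that promoter keep the intact genes. The labels do not say whether wild type mice carried Cre or floxed alleles, nor how many animals stand behind each library. Triplicates are named in the study's text, and 2 libraries of each genotype entered here. P-values therefore measure the spread between these libraries, which may be technical.

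Sterols and fatty acids are built from acetyl-CoA. In the mevalonate part of the pathway, acetyl-CoA is condensed and converted into isoprenoid units, which are joined to squalene, closed to lanosterol and trimmed to cholesterol. Transcription of these genes is driven by the sterol regulatory element-binding proteins (SREBPs), the products of Srebf1 and Srebf2. SREBPs are held in the endoplasmic reticulum by the escort protein Scap bound to the anchor proteins Insig1 and Insig2 while sterols are plentiful, and are carried to the Golgi and cut into active factors when sterols fall. In cartilage, cholesterol is also needed to modify hedgehog ligands, and inherited defects of the late sterol steps affect the skeleton.

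SREBPs act at promoters together with the factor NF-Y, so promoter sequence was described for those of the 30 genes with an annotated promoter. Promoters were taken from RefSeq for the mouse assembly GRCm38.p6 and ran from 250 bases before to 50 bases after an annotated start. Of the 30 genes, 24 had at least 1 such window, and Fdft1, Fdps, Scd1, Scd2, Sqle and Stard4 had none. Letters were searched on both strands. The NF-Y box CCAAT was found in a window of 20 of the 24 genes (83.3%), compared with 42.7% of the 10951 tested genes with a window. Counted per window, it was in 21 of 32 windows of these genes (65.6%) and in 37.4% of all 32851 windows. The E-box CACGTG was in a window of 5 of the 24 genes (20.8%) and of 11.6% of tested genes. A sterol element core, CACCCCAC, was in 2 of the 24 genes, Hmgcs1 and Acat2, and in 3.81% of tested genes. A looser form, TCACNCCAC, was in Hmgcs1 alone of the 24 and in 1.35% of tested genes, and at Hmgcs1 it overlaps the core. Genes with several windows had more chances to match, and a match of letters does not show that a factor binds there. Only these letters were searched, and only within the windows, so a missing match does not show that a gene lacks a sterol element.

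The stretches below lie before the annotated start and show how these letters are placed at the 2 regulators with the smallest p-values that have a window, Insig1 and Srebf2, at Hmgcs1, which holds the sterol element, and at Nsdhl, which has 2 NF-Y boxes before its start. Capitals mark CCAAT or its reverse complement ATTGG, the E-box at Insig1 and the sterol element at Hmgcs1. All 4 are on the plus strand of GRCm38.p6, at chr5:28071192-28071321 for Insig1 (220 to 91 bases before the start), chr15:82147119-82147178 for Srebf2 (150 to 91 before), chr13:119690201-119690320 for Hmgcs1 (150 to 31 before) and chrX:72918401-72918515 for Nsdhl (120 to 6 before).
Insig1: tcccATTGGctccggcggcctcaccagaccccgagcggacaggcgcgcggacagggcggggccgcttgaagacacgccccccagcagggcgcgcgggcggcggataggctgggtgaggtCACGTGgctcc
Srebf2: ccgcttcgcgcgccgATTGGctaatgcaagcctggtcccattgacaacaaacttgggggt
Hmgcs1: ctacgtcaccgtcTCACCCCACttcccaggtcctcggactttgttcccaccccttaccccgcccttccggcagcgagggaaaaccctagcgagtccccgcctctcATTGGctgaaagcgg
Nsdhl: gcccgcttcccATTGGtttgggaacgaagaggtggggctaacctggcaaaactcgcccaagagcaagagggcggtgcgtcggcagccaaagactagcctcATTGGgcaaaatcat
In the printed stretch of Insig1, an NF-Y box stands 216 bases and the E-box 101 bases before the start. The Srebf2 stretch has a single box 135 bases before the start. At Hmgcs1 the sterol element begins 137 bases before the start and the box shown lies 45 bases before that start. The boxes shown at Nsdhl stand 109 and 20 bases before the start.

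Summed estimated counts were 31178248 to 32332044 per library. The targeted genes were lower in both libraries labelled knockout, from 125 ± 9.2 to 48.8 ± 3.7 CPM for Kdm6b and from 54.8 ± 3.0 to 29.99 ± 2.0 CPM for Kdm6a (CPM, a count scaled so that libraries of unequal size can be compared, given as mean ± SD, n = 2). Counts cover whole genes and not the deleted parts alone. Summed FPKM (fragments per kilobase, scaled to library size) of 7 chondrocyte markers was 7052 and 7501 in wild type and 10362 and 10753 in knockout libraries. Most of that sum was Col2a1. In CPM, 6 of the 7 were higher in both knockout libraries, beside 30.9% of all tested genes. Sox9 overlapped, at 143 and 160 FPKM in wild type and 119 and 154 in knockout. The summed markers of macrophages, 96.4 and 97.2 against 53.3 and 61.6, endothelial cells, 29.1 and 32.8 against 20.4 and 24.7, and erythroid cells, 43.8 and 54.8 against 20.7 and 25.6, were lower in both knockout libraries. Most of the macrophage sum was Cd14, and without it the sum was 22.3 and 19.5 against 16.1 and 15.4. Most of the rest was Cd68, at 14.23 and 11.16 FPKM in wild type and 11.35 and 10.59 in knockout. In CPM, 6 of 8 tested macrophage markers were lower in both knockout libraries, beside 30.7% of all tested genes. Adgre1 and Mrc1 overlapped. C1qa, C1qb and C1qc were higher in both knockout libraries but at no more than 0.18 FPKM. Summed skeletal muscle markers stood at 3.92 to 4.89 in 3 libraries and at 13.02 in knockout replicate 2. Fatty acid enzymes are also abundant in fat cells, and summed adipocyte markers did not separate the groups, at 23.4 to 29.7 in wild type and 26.1 and 28.1 in knockout. Of the adipocyte markers, Adipoq was listed at no more than 0.16 FPKM, Plin1 at 0.07 and Cidec at 0.06 in any library. Fabp4 made up most of the sum. Pparg measured 5.96 and 4.74 FPKM in wild type and 7.61 and 5 in knockout. Lipe measured 1.29 and 1.12 FPKM in wild type and was lower in both knockout libraries, at 0.72 and 0.96. In such bulk RNA, fewer cells of a type and less RNA per cell cannot be told apart.

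The first question was how strongly each step was expressed, for which the FPKM levels that the authors deposited were used, since they allow comparison between genes of different length. Acly, which makes acetyl-CoA from citrate in the cytosol, had the highest level, 155 ± 12 FPKM in wild type (mean ± SD, n = 2) and 138 ± 18 in knockout. Msmo1, which removes methyl groups from early sterols, followed at 77.2 ± 5.8 FPKM and 66.2 ± 18. In wild type the next were Insig1 at 55.6 ± 6.7 FPKM, the fatty acid synthase gene Fasn at 44.1 ± 0.69, the desaturase gene Scd1 at 38.0 ± 1.9 and Srebf2 at 37.4 ± 2.9. The last 2 of these differed by less than their spread. At the other end were Lpin1, whose product makes diacylglycerol from phosphatidate, at 1.74 ± 0.21 FPKM, and Tm7sf2, a sterol reductase gene, at 1.10 ± 0.078.

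Within the mevalonate steps, Hmgcs1 (27.96 ± 0.014 FPKM), Fdps (25.5 ± 2.5) and Idi1 (22.5 ± 0.25) stood above the other members in wild type. Hmgcs1 encodes the synthase that commits acetyl-CoA units to the pathway, Idi1 the isomerase of the isoprenoid units and Fdps the enzyme that joins them. The kinase and decarboxylase genes Mvk, Pmvk and Mvd and the thiolase gene Acat2 lay between 4.15 and 5.03 FPKM. From squalene synthesis to cholesterol, Msmo1, the squalene epoxidase gene Sqle (34.1 ± 2.3 FPKM) and the demethylase gene Cyp51 (25.4 ± 0.18) were the highest. The cyclase gene Lss, which closes the ring system between Sqle and Cyp51, measured 4.77 ± 0.021 FPKM. Levels thus spanned more than an order of magnitude among consecutive steps, in both genotypes, and the same 2 genes were at the top and the same 2 at the bottom of the order in wild type and knockout.

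**Figure D1:**
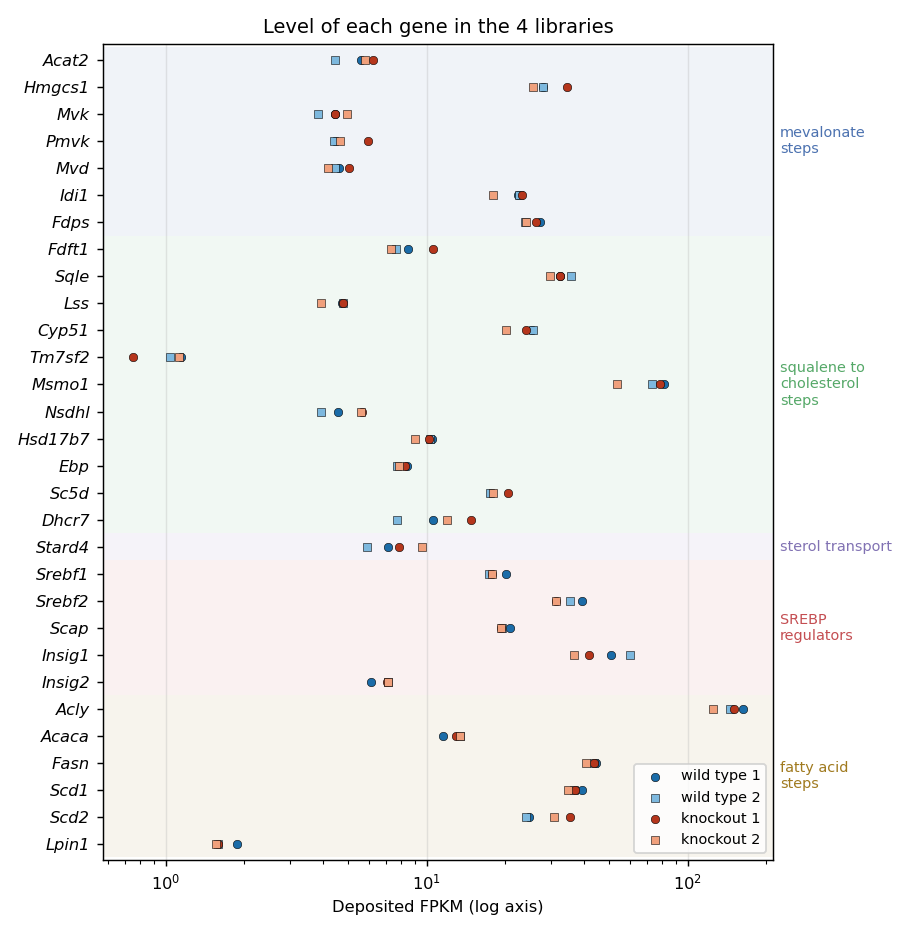
Deposited FPKM (log axis) of the 30 genes in the 2 wild type (blue) and 2 knockout (red) libraries, ordered by pathway step, with each library a point. The 4 points of a gene lie close together compared with the distance between genes, from Tm7sf2 near 1 to Acly above 120 FPKM.

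The second question was which of these genes differed between knockout and wild type. The knockout libraries had less Insig1 RNA and more Scd2 RNA, and no other of the 30 genes passed the test. Of the 30, 1 rose and 1 fell at an edgeR adjusted p below 0.05, and 28 did not pass. Among all tested genes 3.62% were called higher and 5.63% lower, so the counts of 1 of 30 in each direction were near the background. Log2 fold changes, knockout minus wild type, ran from -0.54 for Insig1 to 0.51 for Dhcr7 with a median of -0.08, beside a median of 0.0044 over all tested genes. Without knockout replicate 2 the median of the 30 was 0.0045. With all 4 libraries, the median size of the 30 log2 fold changes, regardless of sign, was 0.16, and that of all tested genes was 0.21. Both knockout libraries lay above both wild type libraries for 6 of the 30 and below for 12, and the groups overlapped for 12. Over all tested genes 30.9% were separated upward and 30.7% downward.

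Most of the differences were small enough to be bounded. The 95% interval of the log2 fold change, not adjusted for the number of genes, lay within a 2-fold change either way for all 30 genes. It lay within 1.5-fold for 22 of the 30, which are all among the 28 not called. Over all tested genes these shares were 75.6% within 2-fold and 53.2% within 1.5-fold. In the authors' deposited table, made with DESeq2, 3 of the 30, Insig1, Scd2 and Srebf2, had an adjusted p below 0.05, as did 8.52% of its 17529 genes. None of the 30 was marked up or down there, and every gene so marked in that table had a log2 fold change beyond 1 in size. DESeq2 run here on the 4 libraries called 4 of the 30 at an adjusted p below 0.05, against 12.6% of the genes it adjusted: these 3 and Dhcr7.

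**Figure D2:**
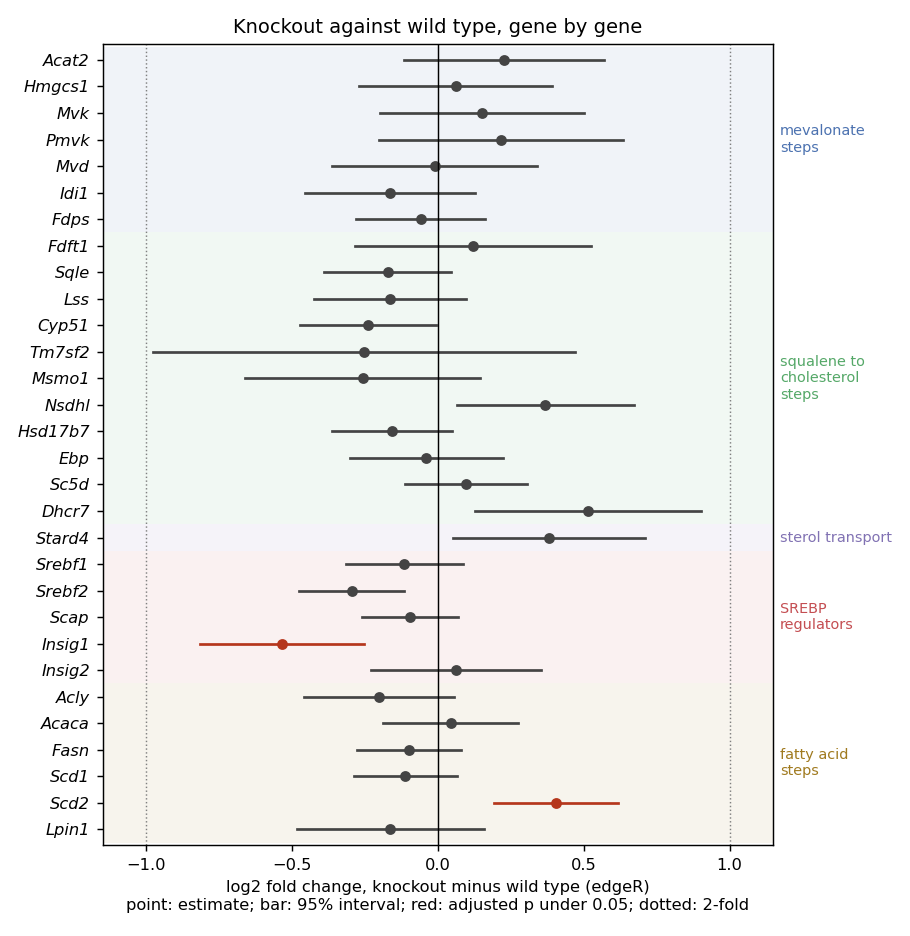
Log2 fold change of each gene, knockout minus wild type, from edgeR, with its 95% interval as a bar and dotted lines at 2-fold. Insig1 at -0.54 and Scd2 at 0.41, in red, are the genes past an adjusted p of 0.05, and the bars of most others cross 0.

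Among the regulators, Insig1 fell. The anchor gene (gene 231070) is itself a target of SREBPs, and its product slows their release. It measured 136 and 165 CPM in the wild type and 111 and 97.0 CPM in the knockout libraries. The groups did not overlap, although the wild type libraries differed by more than the knockout libraries did. Its RNA fell 1.45-fold, by 0.54 on the log2 scale (SE 0.12), with an edgeR adjusted p of 0.0406. The size of the fall depended on single libraries. Its log2 fold change was -0.67 without wild type replicate 1 and -0.38 without wild type replicate 2. It was -0.43 without knockout replicate 2, where the call was lost, and -0.63 without knockout replicate 1, where the call held. Without either wild type library no gene at all passed in edgeR, so those 2 fits cannot show how firm the call of Insig1 is.

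Srebf2 (gene 20788), which encodes the SREBP that mainly drives sterol genes, measured 182 and 167 CPM in wild type and 142 and 142 CPM in knockout. The knockout libraries were nearly equal and lay below both wild type libraries. The log2 fold change was -0.30 (SE 0.075, 95% interval -0.48 to -0.12), with an edgeR adjusted p of 0.0593, just short of the threshold. Srebf1, whose SREBP mainly drives fatty acid genes, measured 87.5 and 76.9 CPM in wild type and 75.9 and 76.0 CPM in knockout (log2 fold change -0.11, SE 0.084, edgeR adjusted p = 0.401). The escort gene Scap had 87.2 and 83.6 CPM against 79.6 and 80.1 CPM, a log2 fold change of -0.10 (SE 0.069). Insig2, the relative of Insig1, had 15.4 and 18.4 CPM against 17.5 and 17.8 CPM, and its groups overlapped. Of the 5 regulators, 4 had both knockout libraries below both wild type libraries, and only Insig1 passed the test. Over all tested genes 30.7% lay apart in that direction. The regulators' summed level was 137 and 140 FPKM in wild type and 117 and 112 FPKM in knockout.

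Among the fatty acid genes, Scd2 rose. Scd2 (gene 20250) encodes a stearoyl-CoA desaturase, an enzyme that puts a double bond into saturated fatty acids. It measured 136 and 136 CPM in wild type and 193 and 167 CPM in knockout. Both knockout libraries lay above the wild type libraries, which were nearly equal. The log2 fold change was 0.41 (SE 0.088, edgeR adjusted p = 0.0409), a 1.32-fold rise. With a knockout library left out, the log2 fold change was 0.30 without replicate 1, where the call was lost, and 0.51 without replicate 2, where it held. The log2 fold change was 0.40 without wild type replicate 1 and 0.41 without wild type replicate 2, fits in which no gene at all passed in edgeR.

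The other desaturase gene, Scd1, measured 192 and 184 CPM in wild type and 179 and 169 CPM in knockout and did not pass (log2 fold change -0.11, SE 0.073, edgeR adjusted p = 0.350). Scd1 and Scd2 are close relatives whose estimated counts were not whole in any library, and how reads that match both were divided is not known here. The chain-building genes did not pass, and their differences were bounded narrowly. Fasn had 448 and 450 CPM against 434 and 404 CPM, with a 95% interval of the log2 fold change from -0.28 to 0.08. Acaca, the gene of the carboxylase that supplies malonyl-CoA, had 106 and 126 CPM against 117 and 122 CPM, with an interval from -0.19 to 0.27. Acly had 726.2 and 667.6 CPM against 661 and 550 CPM, and Lpin1 10.4 and 9.05 CPM against 8.76 and 8.65 CPM. Neither passed the test, with log2 fold changes of -0.20 (SE 0.11) and -0.16 (SE 0.13).

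Ratios between relatives were taken per library on the FPKM scale. Scd2 stood at 0.63 and 0.66 of Scd1 in wild type and at 0.96 and 0.88 in knockout. The level of Insig1 was 8.31 and 8.49 times that of Insig2 in wild type and 5.96 and 5.16 times in knockout. The ratio of Srebf2 to Srebf1 was 1.95 and 2.04 in wild type and 1.76 and 1.76 in knockout. In all 3 ratios the groups did not overlap. Insig1, Srebf2 and Scd2 were also separated between the groups by themselves, so the ratios largely restate those differences. The exact 2-sided permutation test gave p = 0.333 for each, also adjusted over the 3, which is the smallest p that 2 against 2 libraries allow.

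**Figure D3:**
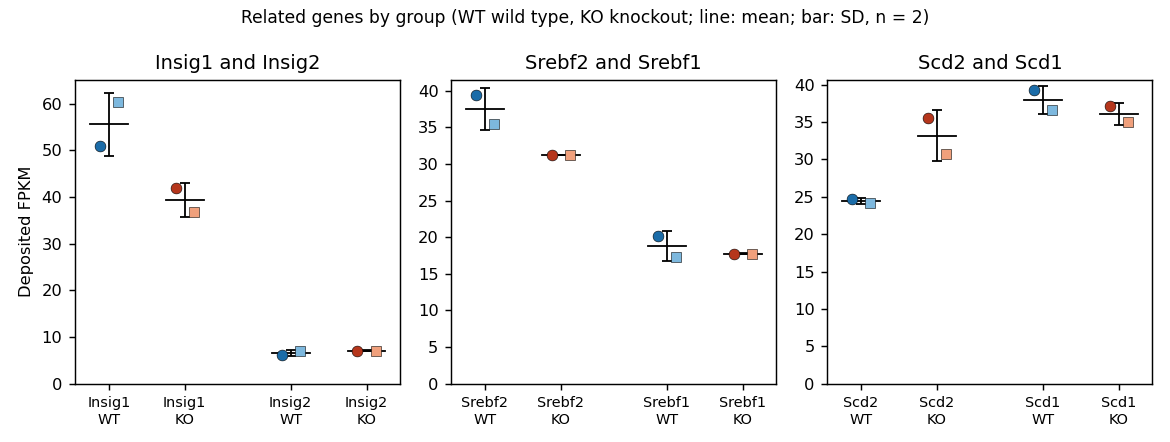
Deposited FPKM of Insig1 and Insig2, Srebf2 and Srebf1, and Scd2 and Scd1, with each library a point (blue wild type, red knockout), the mean as a line and the SD over 2 libraries as a bar. Insig1 is lower and Scd2 higher in both knockout libraries, while Insig2 lies between 6.12 and 7.11 FPKM in all 4 libraries.

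No gene of the sterol synthesis steps passed the test. Of 7 mevalonate genes 0 rose and 0 fell, and of 11 genes from squalene synthesis to cholesterol 0 rose and 0 fell, while DESeq2 called 1, Dhcr7. Of these 18 genes 3 had an unadjusted edgeR p below 0.05 (16.7%), beside 29.2% of all tested genes. The largest difference was that of Dhcr7 (gene 13360), which encodes the reductase of the last step to cholesterol. It measured 30.04 and 22.5 CPM in wild type and 41.5 and 33.7 CPM in knockout, with no overlap but with a wide spread in both groups. The log2 fold change was 0.51 (SE 0.16, edgeR adjusted p = 0.0968), with a 95% interval from 0.13 to 0.90. With DESeq2 its adjusted p was 0.0421. With a library left out, the edgeR adjusted p was 0.0261 without knockout replicate 2, 0.235 without knockout replicate 1, 0.134 without wild type replicate 1 and 0.371 without wild type replicate 2.

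Nsdhl (gene 18194), a dehydrogenase gene of the demethylation of early sterols, measured 10.2 and 8.92 CPM in wild type and 12.4 and 12.2 CPM in knockout. The knockout libraries were both higher, but the log2 fold change of 0.37 (SE 0.13) had an edgeR adjusted p of 0.117. The sterol transfer gene Stard4 (gene 170459) measured 21.4 and 18.1 CPM in wild type and 23.1 and 28.4 CPM in knockout, also without overlap (log2 fold change 0.38, SE 0.14, edgeR adjusted p = 0.128). Cyp51 pointed the other way, with 110.8 and 114.8 CPM in wild type and 104 and 87.3 CPM in knockout (log2 fold change -0.24, SE 0.097, edgeR adjusted p = 0.164). Msmo1 and Nsdhl, which act in the same demethylation, had estimates of opposite sign, -0.26 (SE 0.17) and 0.37. Sc5d, the desaturase gene of the step next to that of Dhcr7, had 0.10 (SE 0.087). None of these differences passed.

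The remaining sterol genes had estimates between -0.25 and 0.23. In the mevalonate part these were 0.23 (SE 0.14) for Acat2, 0.06 (SE 0.14) for Hmgcs1, 0.15 (SE 0.15) for Mvk and 0.21 (SE 0.17) for the kinase gene Pmvk. Mvd, Idi1 and Fdps had -0.01 (SE 0.15), -0.16 (SE 0.12) and -0.06 (SE 0.092). Fdft1, the gene of squalene synthase, had 0.12 (SE 0.17). After squalene, Sqle had -0.17 (SE 0.090), Lss -0.16 (SE 0.11), the reductase gene Tm7sf2 -0.25 (SE 0.30), the dehydrogenase gene Hsd17b7 -0.16 (SE 0.085) and the isomerase gene Ebp -0.04 (SE 0.11). Summed levels of the 7 mevalonate genes were 96.7 and 91.6 FPKM in wild type and 105 and 87.0 FPKM in knockout. Those of the 11 later genes were 205 and 195 FPKM against 210 and 168 FPKM. In both sums the knockout libraries lay on either side of the wild type libraries. Estimated counts lay more than 0.005 from a whole number in at least 1 library for 9 of the 30 genes, Scd1, Scd2, Acat2, Cyp51, Fdft1, Hsd17b7, Idi1, Lss and Sc5d. Why was not tested.

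Most sterol genes were higher in 1 knockout library than in the other. Of the 18 genes of sterol synthesis 16 were higher in knockout replicate 1 than in knockout replicate 2, with a median log2 difference of 0.21. Over all tested genes 49.7% were higher in replicate 1, with a median of -0.00073. The difference was not limited to sterol synthesis. Of the 6 genes of the fatty acid steps 5 were higher in knockout replicate 1, with a median of 0.09. All 6 endothelial markers were higher there too, with a median of 0.27. Msmo1 measured 141 and 96.4 CPM in the 2 knockout libraries, a 1.46-fold difference, beside 147 and 136 CPM in wild type. Fdft1 measured 39.0 and 27.1 CPM in knockout and 31.6 and 29.2 CPM in wild type, and Hmgcs1 120 and 89.4 CPM in knockout and 99.3 and 102 CPM in wild type. Knockout replicate 1 was thus above both wild type libraries, and replicate 2 below both, for Fdft1 and Hmgcs1. Without knockout replicate 1 Msmo1 was called lower, with a log2 fold change of -0.55 (edgeR adjusted p = 0.0151). Without knockout replicate 2 its log2 fold change was -0.0014.

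Among the 18 genes of sterol synthesis Mvk and Tm7sf2 were the exceptions, with 7.51 and 8.35 CPM and 1.10 and 1.66 CPM in the knockout libraries. Between the wild type libraries 10 of the 18 genes were higher in replicate 1, with a median log2 difference of 0.05. The SREBP genes did not share the difference: between the knockout libraries the log2 differences were -0.0017 for Srebf1, -0.0028 for Srebf2 and -0.0087 for Scap. Insig1 was 0.19 higher in knockout replicate 1, and Stard4 was 0.30 lower. Of 13 tested genes of liver X receptor (LXR) factors, which sense oxysterols, and of oxysterol and cholesterol transport, 1 was higher in knockout replicate 1, with a median log2 difference of -0.30. Knockout replicate 2 is also the library with the summed muscle markers of 13.02 FPKM. Whether that bears on the sterol genes was not tested. These differences rest on a single library each and have no replicate, so no test was made.

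**Figure D4:**
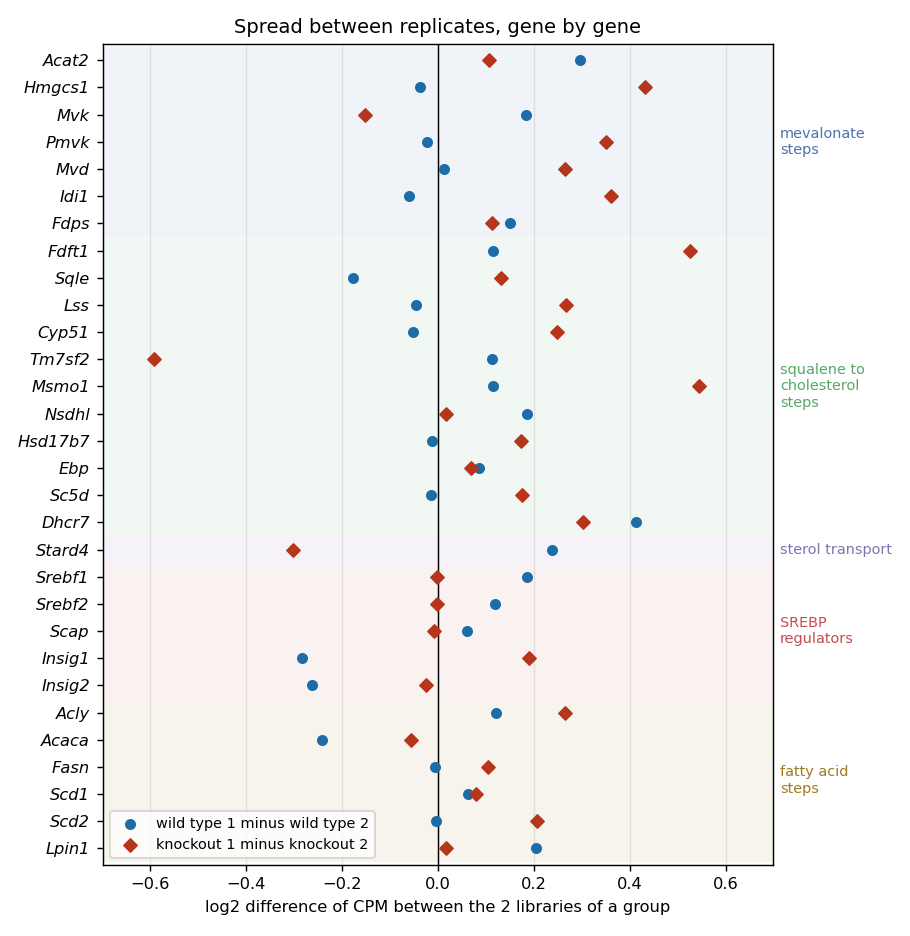
Log2 difference in CPM between the replicates of a group for each gene, wild type replicate 1 minus 2 (blue circles) and knockout replicate 1 minus 2 (red diamonds). Most red diamonds of the sterol synthesis steps lie right of 0, up to 0.54 for Msmo1, whereas those of Srebf1, Srebf2 and Scap lie at 0.

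Other genes of lipid metabolism were read from lists of the same fit, for which the shares over all tested genes were again 3.62% called higher and 5.63% lower. Without either wild type library no gene of these lists passed, as no gene at all did in edgeR. Of 11 tested genes of the other mevalonate and sterol branches 2 rose, 1 fell and 8 did not pass. The mitochondrial thiolase gene Acat1 measured 16.7 and 14.6 CPM in wild type and 23.4 and 22.98 CPM in knockout, and rose 1.48-fold (edgeR adjusted p = 0.0264). Pdss2, which acts in ubiquinone side chain synthesis, rose 1.48-fold (edgeR adjusted p = 0.0426). Soat1, which esterifies cholesterol for storage, had 114 and 109.98 CPM in wild type and 91.3 and 88.8 CPM in knockout, a 1.24-fold fall with an edgeR adjusted p of 0.0422. Soat1 and Pdss2 passed in none of the 4 fits that leave out a library, and Acat1 in 2, those without a knockout library.

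Of 22 tested genes of fatty acid supply, elongation and desaturation 3 rose, 1 fell and 18 did not pass, with a median log2 fold change of 0.20, beside 3.62% higher and 5.63% lower over all genes. DESeq2 called 3 higher and 2 lower, adding Elovl7. The fatty acid activating gene Acsl3 had the smallest p of the lists. It measured 101 and 106 CPM in wild type and 70.4 and 61.8 CPM in knockout (log2 fold change -0.65, SE 0.087, edgeR adjusted p = 0.0113). Its relative Acsl5 moved the opposite way, from 68.4 ± 2.3 to 92.5 ± 5.3 CPM, a 1.35-fold rise (edgeR adjusted p = 0.0227). The genes of polyunsaturated fatty acid synthesis Elovl5, an elongase, and Fads1, a desaturase, rose 1.33-fold and 1.29-fold (edgeR adjusted p = 0.0234 and 0.0362). With a knockout library left out, Acsl3 passed in both fits, Acsl5 and Elovl5 in 1 and Fads1 in 0. Elovl5 measured 41.7 and 40.6 CPM in wild type and 53.5 and 55.7 CPM in knockout.

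Among 13 LXR, oxysterol and cholesterol transport genes there were 2 that fell and 0 that rose, and the median was -0.20. Abcg1, which exports cholesterol, had 16.7 and 15.7 CPM in wild type and 7.08 and 10.3 CPM in knockout, a log2 fold change of -0.90 (SE 0.19) with an edgeR adjusted p of 0.0356, and the oxysterol binding gene Osbp fell 1.32-fold (edgeR adjusted p = 0.0386). Osbp passed in none of the 4 fits that leave out a library, and Abcg1 in 2, those without a knockout library. Neither passed in limma on log2(FPKM + 0.1), with adjusted p-values of 0.0652 for Abcg1 and 0.0602 for Osbp. DESeq2 called both and also Abca1. Macrophages also express Abcg1. Their summed markers, given above, were lower in the same libraries, and their part in this fall was not tested. Of 18 genes of glycerolipid and phospholipid synthesis 0 rose and 2 fell, the relatives of Lpin1 named Lpin2 (1.34-fold, edgeR adjusted p = 0.0288) and Lpin3 (1.45-fold, edgeR adjusted p = 0.0491). DESeq2 called Lpin2 and not Lpin3, and neither passed in any of the 4 fits that leave out a library. Lpin2 measured 94.6 and 106 CPM in wild type and 75.0 and 75.1 CPM in knockout, and thus stood well above Lpin1 in CPM, a scale not corrected for length.

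Of 13 genes of SREBP processing, turnover and partner factors 0 rose and 1, the transcription factor gene Sp1, fell 1.23-fold (edgeR adjusted p = 0.046) and passed in none of those 4 fits. The NF-Y subunit genes Nfya, Nfyb and Nfyc had log2 fold changes of -0.12, 0.21 and 0.14 and did not pass. None of 17 genes of fatty acid oxidation passed in edgeR, and DESeq2 called 0. Of the 17, 7 had an unadjusted edgeR p below 0.05, all with estimates above 0, beside 29.2% of all tested genes at either sign. In all, 13 of the 17 estimates were above 0, beside 6969 of the 13773 tested genes. The 2 with the smallest p-values were the acyl-CoA dehydrogenase gene Acadm and the hydratase gene Echs1, with log2 fold changes of 0.41 (SE 0.11) and 0.39 (SE 0.11) and edgeR adjusted p-values of 0.0676 and 0.0818. The median of the oxidation list was 0.13. No test compared these lists with each other or with the 30 genes.

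**Figure D5:**
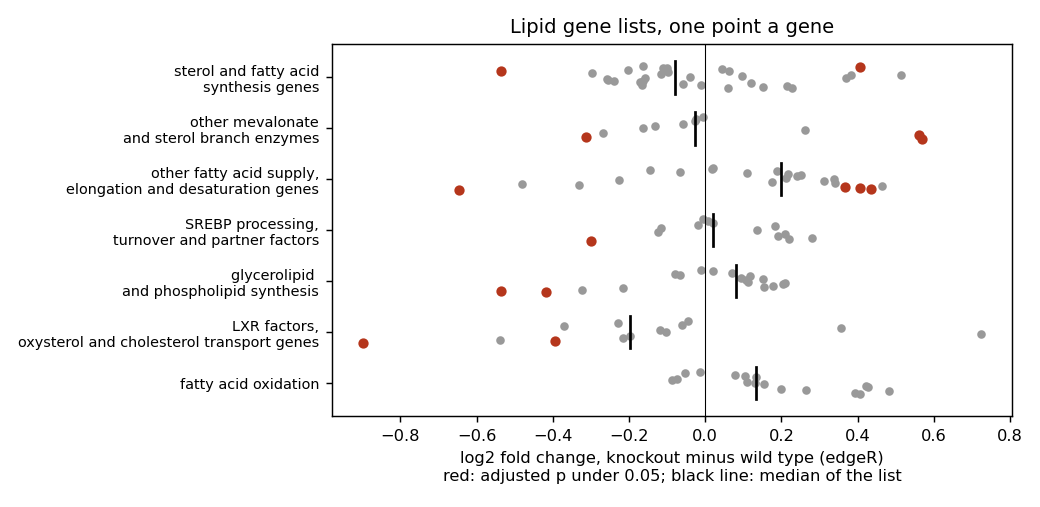
Log2 fold change, knockout minus wild type, of each tested gene of the sterol and fatty acid synthesis genes and of 6 other lipid lists, with genes past an edgeR adjusted p of 0.05 in red and the median of a list as a black line. The called genes lie on both sides of 0, from Abcg1 at -0.90 to Acat1 at 0.57, and no gene of fatty acid oxidation is called.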

How the data were processed

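RNA-seq of 4 libraries was used, with groups taken from the sample titles. Bowtie2 2.2.5 and the genome build mm9 were used, per the submitters' processing notes. Not given in the sources used here are the counter, the annotation and the strand setting. Per the file headers, the authors deposited for each gene its expected count together with its FPKM. From their own comparison, made with DESeq2 per the name of the table, the authors deposited log2 fold changes and p-values. Genes absent from a library's table were taken as 0.

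Counts were rounded and tested across all genes with edgeR 4.0.16 in R 4.3.3 (TMM scaling, filterByExpr, quasi-likelihood F test, Benjamini-Hochberg adjustment over 13773 genes, threshold 0.05), after checks on simulated data. An SE is the size of the log2 fold change divided by the root of F, and 95% intervals use the t distribution. Alternatives used DESeq2 1.42.0, limma 3.58.1 on log2(FPKM + 0.1) or log2(FPKM + 1) with and without a mean FPKM of 0.5, other scalings and filters, a replicate block, summed entries and leaving out each library. The 30 genes, lists and tests were chosen with earlier results of these data known. Named genes were the members, Kdm6a, Kdm6b, and up to 4 called genes of each other list, or the 2 with the smallest p-values. Other named genes, such as Nfya, Nfyb and Nfyc, and the comparison of the 2 knockout libraries were chosen after their values were seen. Promoter windows come from RefSeq on GRCm38.p6, matched by gene number, and carry no mm9 coordinates.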

Additional observations from a re-analysis of the deposited data

How the results depend on the processing

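Of the 30 genes, 1 was called higher and 1 lower in edgeR. With no filter both counts were 0, as they were for limma on FPKM with no filter. With DESeq2 both were 2, with Dhcr7 and Srebf2 added to Scd2 and Insig1. With the replicate block both were also 2, with the same genes. The labels do not say that numbers pair the libraries, and same-numbered libraries deviated together with a correlation of 0.107 across genes. With limma on log2(FPKM + 0.1) or log2(FPKM + 1), the count of lower genes was 0, with an adjusted p for Insig1 of 0.0615 and 0.0597. Leaving out each library gave 0 to 2 higher and 0 to 2 lower genes. Calls among all tested genes went from 1274 to 720 with no filter, 0 in limma with no filter (4055 at an unadjusted p under 0.05), 2316 with the replicate block, and 0 to 1275 with a library left out. The 0 arose without either wild type library, where 3442 and 2587 genes had an unadjusted p under 0.05. The share of falling genes among the calls was 60.9% in edgeR and 47.6% in limma on log2(FPKM + 0.1), whose median log2 fold change was 0.05.

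For 9 of the 30 genes, none of them called, the estimate changed sign in at least 1 setting. That of Mvd was 0.017, 0.015 and 0.017 in limma with pseudocounts of 0.1, 1 and 0.1 with no filter. With a library left out the ranges were -0.15 to 0.12 for Mvd, -0.072 to 0.17 for Acaca, -0.077 to 0.0050 for Ebp, -0.17 to 0.37 for Fdft1, -0.13 to 0.019 for Fdps, -0.17 to 0.27 for Hmgcs1, -0.35 to 0.014 for Idi1, -0.062 to 0.20 for Insig2 and -0.57 to 0.013 for Tm7sf2. No other of the 30 genes changed sign. The cause was not tested. Tm7sf2, at 1.10 to 1.71 CPM, had the largest SE of the 30 genes, 0.30.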
